A study of Mus musculus with 8 samples.

Results

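Chemokines are small secreted proteins that steer leukocytes. A ligand of the CC, CXC, CX3C or XC family binds a G protein-coupled receptor on a migrating cell, while the atypical receptors (Ackr) take ligands up without G protein signalling and so shape the gradients. In the liver, Kupffer cells, stellate cells, endothelium and hepatocytes make inflammatory ligands such as Ccl2 and Cxcl10, and the homeostatic ligands Ccl19 and Ccl21 are best known from lymphoid tissue and lymphatic vessels, where they guide Ccr7-bearing T cells and dendritic cells.

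The genes described here are the chemokine ligands and receptors in liver RNA-Seq data of obese diabetic mice given a control or a peptide made from estrogen receptor α (ERα). They were chosen by gene symbol, as a ligand stem (Ccl, Cxcl, Cx3cl, Xcl) or a receptor stem (Ccr, Cxcr, Cx3cr, Xcr, Ackr) followed by a digit, together with Gm13304 and Gm10591, which are further copies of Ccl21. The choice took 55 of the 21532 genes of the table. The 5 Ccl21 copies (Ccl21a, Ccl21b, Ccl21d, Gm13304 and Gm10591) share most of their sequence and were added up as 1 signal, which left 51 genes, 31 ligands and 20 receptors. Of these, 28 (19 ligands and 9 receptors) reached a mean normalized count of 10 over the mice and were tested, and 23 (12 ligands and 11 receptors) did not.

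All 8 mice were male db/db mice on the C57B/6J background, which lack a working leptin receptor. From 8 weeks of age, 4 mice received control and 4 received AF1 peptide, a sequence derived from ERα and joined to a cell-entering TAT stretch. Both were given at 5 mg/kg body weight into the retro-orbital sinus 2 times per week for 5 weeks. No lean or untreated mice were part of this RNA-Seq comparison, and what the control injection held is not described further in the sources used here. Each frozen liver gave 1 library, so the values are of whole liver, and fewer cells of a type and less RNA per cell cannot be told apart.

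The control libraries held 35260283 to 45117528 recovered reads each and the AF1 peptide libraries 23031880 to 43978158. AF1 peptide replicate 1 stood apart from the other 7 libraries. Its score on the first principal component, which held 39.4% of the variance, was 74.2, against -21.8 to 2.34 in the others. Summed markers of Kupffer cells were 2575 normalized counts in that mouse, against 5669 to 7177 in the control mice and 6375 to 6671 in AF1 peptide replicates 2 to 4. The summed B cell markers were 56 in that mouse and 145 to 251 in the others of its group, and the summed neutrophil markers were 68.1 and 159 to 293. Hepatocyte markers summed to 1686735 in it and to 2091183 or more in every other mouse, a sum made up mostly of albumin (Alb), and the 6 markers did not move together. Alb, Ttr and Apoa1 were the lowest of the 8 mice there, while Tat (68707, against 6311 to 23826 in the others), Cps1 (34576, against 5979 to 13727) and Cyp2e1 (117704, against 59170 to 111379) were the highest. Mitochondrial genes took 21.1% of its reads, near control replicate 4 (22.6%), where the control mice ran from 22.6 to 34.7% and AF1 peptide replicates 2 to 4 from 34.7 to 38.2%. Results are therefore given with and without this mouse.

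The Ccl21 copies carry the clearest difference between the groups, so their sequences are shown first. In the GENCODE M21 transcripts each copy has a coding sequence of 399 bases without the stop codon. Ccl21b, Ccl21d, Gm13304 and Gm10591 are identical over it, and each differs from Ccl21a at 2 positions, T84A and C194T (the base of Ccl21a first, positions counted from 1 at the start of the coding sequence). Ccl21a is known as the serine form of the protein, made in lymphoid organs, and the others as the leucine form, found in peripheral lymphatic vessels. The stretch around each of the 2 positions is given for Ccl21a and for Ccl21b, which stands for all 4 leucine copies, with the differing base in capitals.
Ccl21a around position 84: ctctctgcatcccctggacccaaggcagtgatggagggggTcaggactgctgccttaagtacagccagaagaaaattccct
Ccl21b around position 84: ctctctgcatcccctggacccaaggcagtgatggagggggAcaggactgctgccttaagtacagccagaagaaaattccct
Ccl21a around position 194: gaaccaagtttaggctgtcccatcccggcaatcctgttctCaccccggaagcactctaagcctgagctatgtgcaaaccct
Ccl21b around position 194: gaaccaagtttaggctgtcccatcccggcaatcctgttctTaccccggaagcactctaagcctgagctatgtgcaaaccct
Within the coding sequence, a read that covers neither position has the same letters in every copy. Of the 50-base words in the Ccl21a transcripts, 71.6% also occur in another gene, while the share is 97.1% for Ccl21d and 100% for Ccl21b, Gm13304 and Gm10591. The transcripts thus also differ outside the coding sequence, since Ccl21d has words of its own (2.9%) there. How reads that match several genes were counted is not given in the sources used here. Gm13304 and Gm10591 had equal numbers of recovered reads in 6 of the 8 mice, so the rows of the copies are not separate measurements.

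Of the 28 tested chemokine and receptor genes, 2 were higher with AF1 peptide at an unadjusted limma p under 0.05 (the Ccl21 copies and Ccl25), against 3.14% of all 15985 tested genes. Lower genes numbered 0 of 28 by limma, and also 0 by edgeR and by DESeq2, against 3.03%, 3% and 2.77% of all tested genes by these tools. The groups did not overlap for 1 of the 28, the Ccl21 sum, which was higher, where 2.02% of all tested genes did not overlap and were higher and 1.85% did not overlap and were lower. Without AF1 peptide replicate 1, 3 of the 28 were higher (the Ccl21 copies, Ccl19-ps1 and Ccl19-ps2) and 0 were lower, against 4.55% and 5.47% of all tested genes. The rows of Ccl19-ps1 and Ccl19-ps2 may hold the same reads, so they may not be separate signals. Over all genes 502 were higher and 484 lower by limma, a split that became 125 and 768 when the libraries were rescaled to equal totals. No gene of the whole table passed a Benjamini-Hochberg adjusted p of 0.05 by limma (986 had an unadjusted p under 0.05) or by edgeR (1032), and DESeq2 passed 4 (1000), of which the summed Ccl21 was 1.

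**Figure D1:**
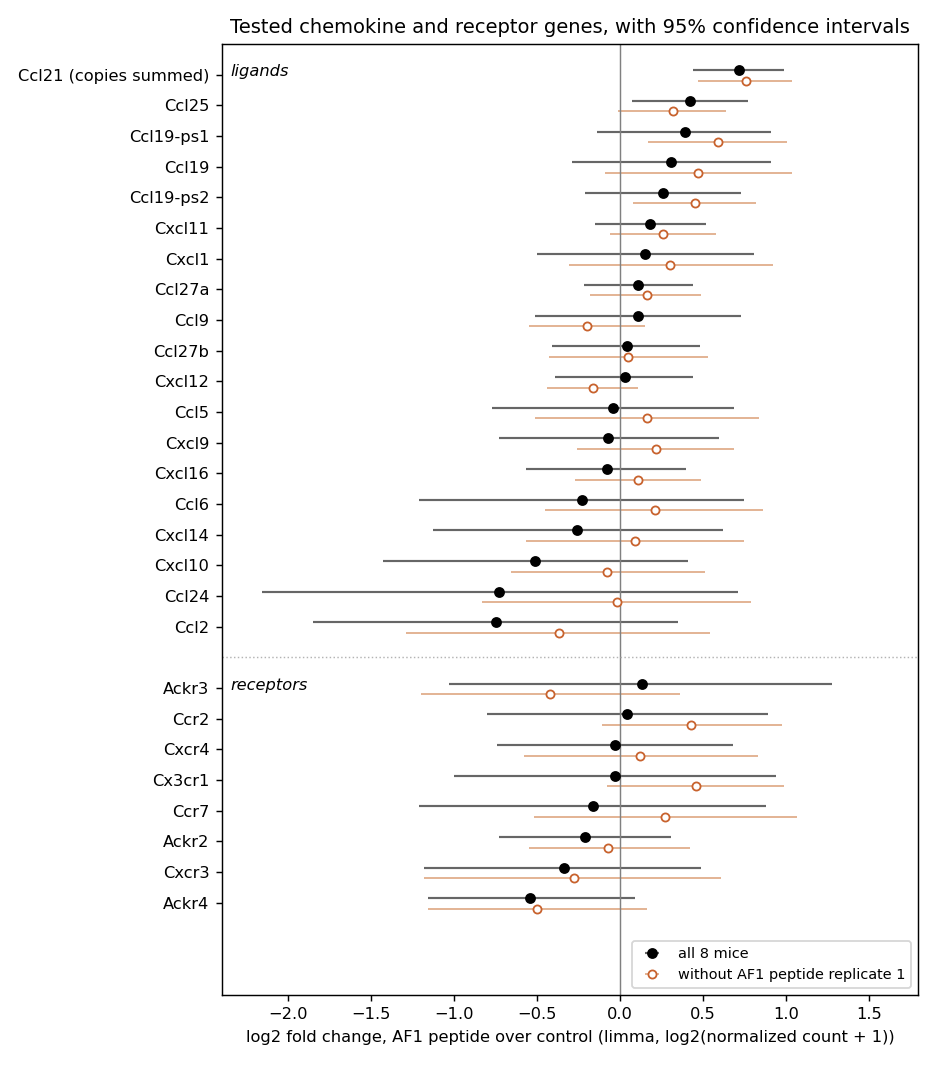
Log2 fold change (AF1 peptide over control, limma on log2(normalized count + 1)) of 27 tested genes, ligands above and receptors below the dotted line, with bars for 95% confidence intervals. Filled points use all 8 mice and open points leave out AF1 peptide replicate 1. The intervals of the summed Ccl21 copies lie above 0 in both, that of Ccl25 only with all 8 mice, and those of Ccl19-ps1 and Ccl19-ps2 only without AF1 peptide replicate 1.

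The homeostatic ligands hold tissue cells and lymphocytes in place and guide them at rest. Of their 9 genes, 7 were tested, and 2 of them, the Ccl21 copies and Ccl25, were the genes that passed the unadjusted threshold. The median log2 fold change of the 7 was 0.11, against -0.01 over all tested genes.

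Ccl21 rose by 1.64-fold with AF1 peptide. The summed normalized counts of its 5 copies were 521, 427, 510 and 377 in control replicates 1 to 4 and 686, 712, 770 and 831 in AF1 peptide replicates 1 to 4. Every AF1 peptide-treated mouse lay above every control mouse, AF1 peptide replicate 1 included. The group values were 459 ± 68.8 and 750 ± 64.6 (SD, n = 4 each). The log2 fold change was 0.72, with a standard error of 0.13 and a 95% confidence interval of 0.44 to 0.99, and its limma p of 0.000173 was number 2 of all 15985 tested genes in order of size. It did not pass the correction over all genes in limma (Benjamini-Hochberg adjusted p = 0.765) or edgeR (0.752), and passed it in DESeq2 (0.00621). A two-sided exact permutation test over the 8 mice, chosen after the values were seen, gave p = 0.0286, the smallest that 4 mice against 4 allow. Groups that do not overlap always reach that value, so the test adds nothing to the order of the mice. In DESeq2 with the copies as separate rows, which does not count a shared read several times in 1 gene, the adjusted p of the copies was 0.12 to 0.135. Leaving out each mouse in turn gave log2 fold changes of 0.63 to 0.78, and without AF1 peptide replicate 1 the value was 0.76 (unadjusted limma p of 9.39e-05).

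In the row of each copy all AF1 peptide-treated mice also lay above all control mice. The order of the mice within a group differed between the rows, and the rows may hold the same reads. Ccl21a, the copy with the largest share of words of its own (28.4%), was 95.6, 67, 73.5 and 56.9 normalized counts in the control mice and 125, 119, 119 and 155 in the AF1 peptide-treated mice. The groups did not overlap. The log2 fold change of this copy was 0.83, with a standard error of 0.18 (limma, Benjamini-Hochberg adjusted p = 0.763). Ccl21b, 1 of the leucine copies, lay at 97.5 to 119 in control mice and 152 to 189 with AF1 peptide, which came to 0.64 on the log2 scale (standard error 0.14). Those of Ccl21d, Gm13304 and Gm10591 were 0.72, 0.7 and 0.7, and neither these nor the Ccl21b groups overlapped.

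**Figure D2:**
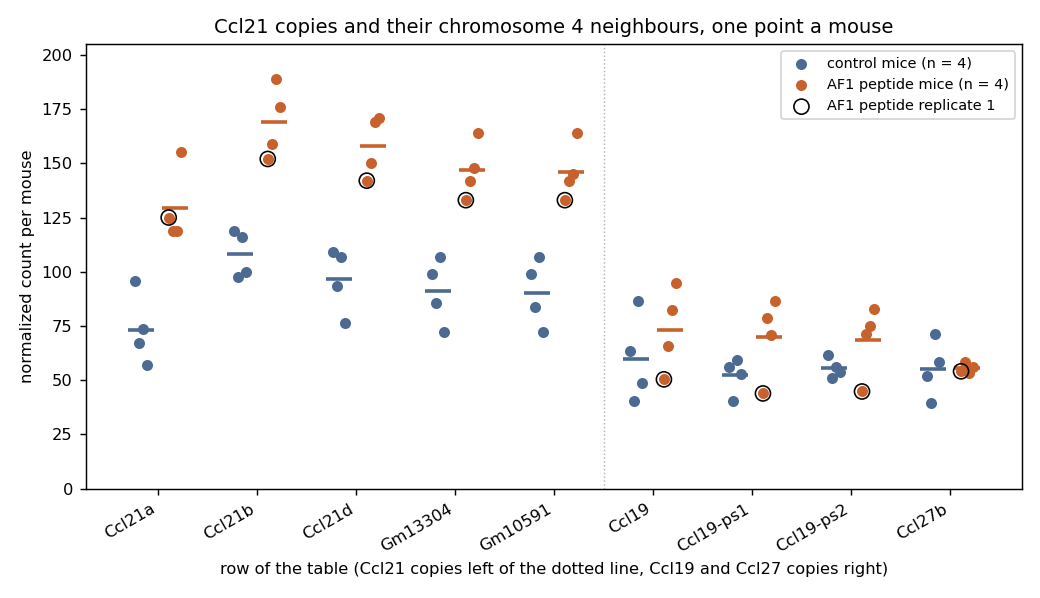
Normalized count (vertical axis, from 0) of the Ccl21 copies, left of the dotted line, and of copies of Ccl19 and Ccl27, right of it, all on chromosome 4. Each point is a mouse, bars are group means (n = 4), and the ringed point is AF1 peptide replicate 1. For every Ccl21 copy the lowest AF1 peptide-treated mouse lies above the highest control mouse, while the groups of the other genes overlap.

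Lymphatic endothelium is a known source of Ccl21, and a list of its markers was read alongside. The 4 markers (Pdpn, Flt4, Reln and Mmrn1) summed to 1435 to 1906 in control mice and 1606 to 2240 in AF1 peptide-treated mice, ranges that overlap. Of the 2 that were tested, 0 passed the limma threshold. The log2 fold change was 0.09 for Flt4 and 0.19 for Reln, while Pdpn and Mmrn1 were near the detection limit, at 1.67 to 15.7 and 2.16 to 7.35 over the 8 mice, and no marker was at 0 in any mouse. The sum was thus nearly all Flt4 and Reln. Which cells of the whole liver these came from was not tested, so the sum is not a measure of lymphatic endothelium alone. Dendritic cell markers summed to 335 to 442 in control and 346 to 548 in AF1 peptide-treated mice, and T cell markers to 81.6 to 147 and 113 to 133. The part of these cells in the Ccl21 difference was not tested.

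Ccl19 shares the receptor Ccr7 with Ccl21 and sits near it on chromosome 4. Its normalized counts were 63.5, 40.4, 86.5 and 48.6 in control mice and 50.4, 65.8, 82.4 and 94.6 in AF1 peptide-treated mice. The groups overlapped, and the log2 fold change of 0.31 (95% confidence interval -0.29 to 0.91) was within the spread between mice, as was that of 0.47 without AF1 peptide replicate 1 (-0.09 to 1.04). The Ccl19 pseudogene copy Ccl19-ps1 was 56, 40.4, 59.5 and 52.8 in control mice and 43.9, 78.5, 70.8 and 86.3 in AF1 peptide-treated mice. Only AF1 peptide replicate 1 lay within the control range there, and without it the log2 fold change went from 0.39 (95% confidence interval -0.14 to 0.91) to 0.59 (0.17 to 1.01, limma's Benjamini-Hochberg adjusted p = 0.476). Ccl19-ps2 was 51.2 to 61.8 in control mice, 44.8 in AF1 peptide replicate 1, below every control mouse, and 71.2 to 82.7 in the other 3, above every control mouse, with log2 fold changes of 0.26 (-0.21 to 0.73) and, without replicate 1, 0.45 (0.08 to 0.82). Of the 50-base words of Ccl19, 52% occur in other genes, and of those of Ccl19-ps1 46%, so these rows too may hold the same reads.

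Ccl27a and Ccl27b, ligands of Ccr10 that are best known from skin, lie in the same stretch of chromosome 4. Ccl27a was 505, 391, 639 and 471 normalized counts in control mice and 483, 612, 502 and 544 in AF1 peptide-treated mice, all within the control range. Its log2 fold change was 0.11 (95% confidence interval -0.22 to 0.44). Ccl27b, 98.1% of whose words occur elsewhere, had a log2 fold change of 0.04 (-0.41 to 0.48).

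Ccl25, the ligand of Ccr9, known for guiding thymocytes and gut-homing T cells, had a fold of 1.34 with AF1 peptide over control. The normalized counts were 236, 174, 195 and 183 in control mice and 322, 289, 220 and 230 in AF1 peptide-treated mice. AF1 peptide replicates 1 and 2 lay above all control mice, and replicates 3 and 4 between control replicate 1 and the other control mice. The groups were 197 ± 27.1 and 265 ± 48.6 (SD, n = 4 each), and the log2 fold change was 0.42, with a standard error of 0.16 (unadjusted limma p of 0.023, Benjamini-Hochberg adjusted p = 0.765). The two-sided exact permutation test gave p = 0.0857. The unadjusted limma p rose above 0.05 without control replicate 2 (0.0635), control replicate 4 (0.0562), AF1 peptide replicate 1 (0.0535) or AF1 peptide replicate 2 (0.0622), and under equal totals (0.11).

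Cxcl12, the stromal ligand of Cxcr4 that retains blood progenitors and lymphocytes, had the highest mean normalized count of all chemokine genes. It was 2934, 2444, 2493 and 3398 in control mice and 4225, 2369, 2422 and 2692 in AF1 peptide-treated mice. AF1 peptide replicate 1 was the highest of the 8 and replicates 2 and 3 the lowest. The log2 fold change was 0.03 (95% confidence interval -0.39 to 0.44), and -0.16 without replicate 1 (-0.44 to 0.11). Cxcl14, a ligand made by epithelia and stroma, was 51.1 to 115 in control mice and 32.7 to 138 in AF1 peptide-treated mice, where replicate 1 was the lowest of the 8.

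The inflammatory CC ligands attract monocytes and T cells. Of their 9 genes 4 were tested, and 0 passed the limma threshold in either direction. Ccl2, the main ligand that draws Ccr2-bearing monocytes out of the blood, was 26.4, 69.9, 78.9 and 59.5 normalized counts in control mice and 14, 23.7, 76.6 and 39.5 in AF1 peptide-treated mice. AF1 peptide replicates 1 and 2 lay below every control mouse and replicate 3 near the highest control mouse. This made a log2 fold change of -0.75 (standard error 0.5, 95% confidence interval -1.85 to 0.35). It was -0.37 without AF1 peptide replicate 1, and the limma p fell under 0.05 without control replicate 1 (log2 fold change -1.09, p of 0.0494) or AF1 peptide replicate 3 (-1.17, p of 0.0246).

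Ccl9, a ligand of Ccr1 made by myeloid cells, had the highest level for its exon length, at 588 normalized counts per kb, among the tested genes with a single length to divide by, which leaves out the summed Ccl21 copies and Ccl19-ps2. It was 1433, 2130, 1428 and 1659 normalized counts in control mice and 3341, 1733, 1177 and 1423 in AF1 peptide-treated mice. The highest of the 8 mice was AF1 peptide replicate 1, and replicates 3 and 4 were the lowest. Over all mice the log2 fold change was 0.11 (95% confidence interval -0.51 to 0.73) and turned to -0.20 without replicate 1 (-0.55 to 0.15). Ccl6, a related myeloid ligand, went the other way in that mouse, with 38.3 in replicate 1, 62.6 to 163 in control mice and 95 to 177 in replicates 2 to 4.

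Ccl5, a ligand made largely by T and NK cells, was 41.2, 42.3, 78.9 and 106 in control mice and 39.2, 65.8, 74.1 and 68.9 in AF1 peptide-treated mice. The control mice spread more widely than the AF1 peptide-treated mice, and the log2 fold change was -0.04 (95% confidence interval -0.77 to 0.69), which turned to 0.16 without AF1 peptide replicate 1 (-0.51 to 0.84). Ccl24, the eotaxin that attracts eosinophils through Ccr3, was 19.8, 19.7, 33.5 and 38.5 in control mice and 2.8, 16.4, 44.5 and 24.8 in AF1 peptide-treated mice. The 8 mice ran from AF1 peptide replicate 1 at the bottom to AF1 peptide replicate 3 at the top. The log2 fold change was -0.73 with all mice (95% confidence interval -2.16 to 0.71) and -0.02 without replicate 1 (-0.83 to 0.79).

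The CXC ligands include the neutrophil attractants that bind Cxcr2 and the interferon-induced ligands of Cxcr3. Cxcl1, of the first kind, was 222, 360, 174 and 203 in control mice and 187, 462, 226 and 221 in AF1 peptide-treated mice. Control replicate 2 and AF1 peptide replicate 2 were the highest of their groups, and the log2 fold change was 0.15 (95% confidence interval -0.50 to 0.81) and 0.30 without AF1 peptide replicate 1. Cxcl2, of the same kind, stayed under the minimum, at 1.65, 12.8, 10.8 and 11.7 in control mice and 5.6, 3.65, 10.7 and 7.35 in AF1 peptide-treated mice.

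The 3 interferon-induced ligands, Cxcl9, Cxcl10 and Cxcl11, were all tested, and 0 passed the limma threshold. Cxcl9 was 446, 459, 829 and 667 in control mice and 307, 837, 543 and 673 in AF1 peptide-treated mice, with the lowest value in AF1 peptide replicate 1 and the highest in replicate 2. Cxcl10 was 58.5, 117, 115 and 128 in control mice and 28, 111, 72.5 and 106 in AF1 peptide-treated mice. Replicate 1 was again the only AF1 peptide-treated mouse below the control range. The log2 fold changes were -0.07 for Cxcl9 and -0.51 for Cxcl10 (95% confidence intervals -0.73 to 0.60 and -1.43 to 0.41), and 0.22 and -0.08 without replicate 1. Cxcl11, the other ligand of this kind, was 290, 220, 336 and 298 in control mice and 271, 329, 368 and 323 in AF1 peptide-treated mice, which gave 0.18 on the log2 scale (-0.15 to 0.52).

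Inflammatory ligand genes are known targets of NF-κB and of interferon-regulated factors, and the Cxcl10 promoter is a textbook case of both. In RefSeq (GRCm38.p6) the 300 bases from 250 before to 50 after the start of Cxcl10, on the minus strand, hold 1 match to the κB letters GGGANTTNCC and 1 to the interferon response letters GAAANNGAAA, shown here in capitals.
Cxcl10 promoter, chr5:92348840-92349139: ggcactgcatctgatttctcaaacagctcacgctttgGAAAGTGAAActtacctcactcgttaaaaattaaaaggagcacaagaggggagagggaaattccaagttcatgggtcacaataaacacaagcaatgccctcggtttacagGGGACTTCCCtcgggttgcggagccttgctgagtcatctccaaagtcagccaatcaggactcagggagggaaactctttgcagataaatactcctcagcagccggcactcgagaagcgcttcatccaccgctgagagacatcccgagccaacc
The matches do not overlap. Searched on both strands, the κB letters stood in 5 of 47 RefSeq promoters of chemokine and receptor genes (those of Ccr3, Ccr6, Cxcl1, Cxcl10 and Cxcl2) and in 1.2% of all 32851 promoters. The 47 belong to 40 genes, with each Ccl21 copy that has a promoter counted on its own. The interferon response letters stood in 3 of 47 (Ccl19, Cxcl10 and Cxcl14) and in 3.44% of all promoters. Of these genes Ccr3, Ccr6 and Cxcl2 were under the minimum and not tested, and Cxcl1, Cxcl10, Ccl19 and Cxcl14 were tested and not called with all 8 mice. A match of letters is not a measured binding site.

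Cxcl16, a ligand of Cxcr6 that is held in the cell membrane, was 173 to 223 in control mice and 122 to 273 in AF1 peptide-treated mice, with AF1 peptide replicate 1 the lowest and replicate 3 the highest of the 8. Cx3cl1, the other membrane-held ligand and the partner of Cx3cr1, was 2.47, 1.97, 0 and 1.67 in control mice and 3.73, 0, 1.65 and 0.918 in AF1 peptide-treated mice, too low to compare.

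Receptor genes lay at the low end of the levels per exon length. The 8 tested receptors described here had between 5.53 (Ackr4) and 21.1 (Ackr2) normalized counts per kb of exon, and the 17 tested ligands with a length had between 19.3 (Ccl24) and 588 (Ccl9). The next lowest after Ackr4 was Ackr3 (7.06). The median log2 fold change was -0.16 over the tested receptors and 0.04 over the tested ligands, beside -0.01 over all genes, and without AF1 peptide replicate 1 these were -0.07, 0.16 and -0.004.

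**Figure D3:**
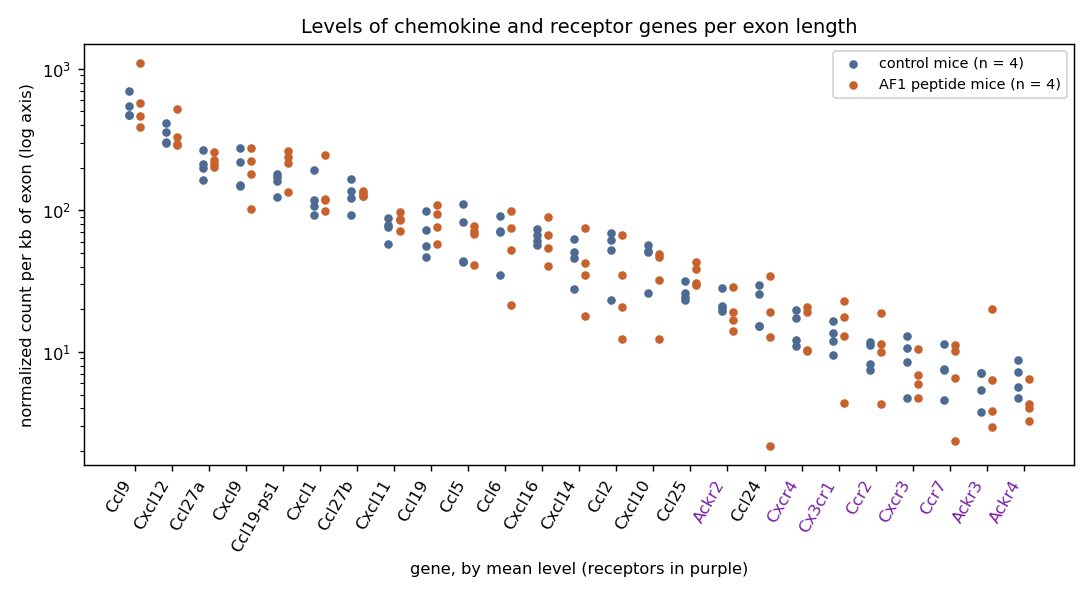
Normalized count per kb of exon (log axis) of 25 tested genes with an exon length, in order of their mean, with a point for each mouse. Receptors, labelled in purple, fill the low end, from 21.1 per kb for Ackr2 to 5.53 for Ackr4, with the ligand Ccl24 (19.3) among them.

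Among the CC receptors, Ccr2 marks blood-derived monocytes and was 56, 75.8, 80 and 50.2 in control mice and 28.9, 67.6, 127 and 77.1 in AF1 peptide-treated mice. AF1 peptide replicate 1 was the lowest and replicate 3 the highest of the 8. Its log2 fold change was 0.04 (95% confidence interval -0.80 to 0.89), and 0.43 without replicate 1 (-0.11 to 0.98). Ccr7, which reads Ccl19 and Ccl21, was 9.06 to 22.6 in control mice, 4.67 in AF1 peptide replicate 1 and 12.9 to 22.2 in the other 3, with a log2 fold change of -0.16 (95% confidence interval -1.21 to 0.88), which turned to 0.27 without replicate 1 (-0.52 to 1.07).

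Cx3cr1, found on patrolling monocytes and tissue macrophages, was 53.6, 74.8, 61.6 and 42.7 in control mice and 19.6, 58.4, 104 and 79.9 in AF1 peptide-treated mice. The lowest value was again in AF1 peptide replicate 1 and the highest in replicate 3, and the log2 fold change went from -0.03 (95% confidence interval -1 to 0.94) to 0.46 without replicate 1 (-0.08 to 0.99). Cxcr3, the receptor of the interferon-induced ligands on activated T and NK cells, was 8.24, 14.8, 18.4 and 22.6 in control mice and 10.3, 18.3, 8.24 and 11.9 in AF1 peptide-treated mice, at log2 fold change -0.34 (-1.18 to 0.49). Cxcr4, the signalling receptor of Cxcl12, was 19.8, 31.5, 35.7 and 21.8 in control mice and 18.7, 18.3, 34.6 and 37.7 in AF1 peptide-treated mice. Both groups spanned nearly the same range, and the log2 fold change was -0.03 (-0.74 to 0.68) and 0.12 without replicate 1.

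All 3 atypical receptors of the table were tested and 0 passed the limma threshold. Ackr4, which takes up and degrades Ccl19, Ccl21 and Ccl25, was 38.7, 25.6, 30.3 and 46.9 in control mice and 21.5, 34.7, 23.1 and 17.4 in AF1 peptide-treated mice. AF1 peptide replicates 1, 3 and 4 lay below every control mouse and replicate 2 within the control range. With all mice the log2 fold change was -0.54 (standard error 0.28, 95% confidence interval -1.16 to 0.09), and -0.50 without AF1 peptide replicate 1 (-1.16 to 0.16). Over the fits that each left out 1 mouse it ran from -0.72 to -0.39. Among these, the limma p fell under 0.05 only without AF1 peptide replicate 2 (log2 fold change -0.72, p of 0.0276) or control replicate 2 (-0.68, p of 0.0487). Ackr3, a scavenger of Cxcl12, was 18.1, 23.6, 23.8 and 12.6 in control mice and 67.2, 12.8, 9.89 and 21.1 in AF1 peptide-treated mice. The value of AF1 peptide replicate 1, in which Cxcl12 was also the highest, was more than any other mouse's, and without it the log2 fold change went from 0.13 (95% confidence interval -1.03 to 1.28) to -0.42 (-1.20 to 0.36). Ackr2, which clears inflammatory CC ligands, was 61.1 to 89 in control mice and 43.9 to 90 in AF1 peptide-treated mice, with a log2 fold change of -0.21 (-0.73 to 0.31), and -0.07 without replicate 1 (-0.55 to 0.42).

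The genes called higher with all 8 mice, Ccl21 and Ccl25, can be set beside their partners. Of the receptors of Ccl21 and Ccl25, Ccr7 and Ackr4 were not called with all 8 mice, and Ccr9, the receptor of Ccl25, stayed under the minimum, at 0.837 to 4.12 in control mice and 1.87 to 14.6 in AF1 peptide-treated mice.

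AF1 peptide replicate 1 set the spread of many of these genes. It was the lowest of the 8 mice for 14 of the 28 tested genes, among them Ccl2, Ccl5, Ccl24, Cxcl9, Cxcl10, Ccr2, Ccr7 and Cx3cr1, where it was the lowest for 23.4% of all tested genes. It was the highest for 4 of the 28, Ccl9, Cxcl12, Ccl25 and Ackr3, where it was the highest for 25.9% of all tested genes. AF1 peptide replicate 3 was the highest for 7 (Cxcl11, Ccl6, Cxcl16, Cxcl14, Ccl24, Cx3cr1 and Ccr2). In AF1 peptide replicate 1, Cxcr3 (10.3) lay within the control range. The Kupffer, B cell and neutrophil marker sums of AF1 peptide replicate 1 were the low ones given above, while its summed monocyte markers, at 17471, were the highest of the 8 mice (12488 to 14791 in control mice and 12475 to 13150 in AF1 peptide replicates 2 to 4), a sum that is mostly Fn1 (17308), which hepatocytes also make. The summed T cell markers were 113 in it, within the 81.6 to 147 of the control mice, and the summed markers of recruited macrophages were 1249, against 2163 to 3988 in control mice and 2005 to 3557 in AF1 peptide replicates 2 to 4. The part of these cells in the chemokine values was not tested.

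**Figure D4:**
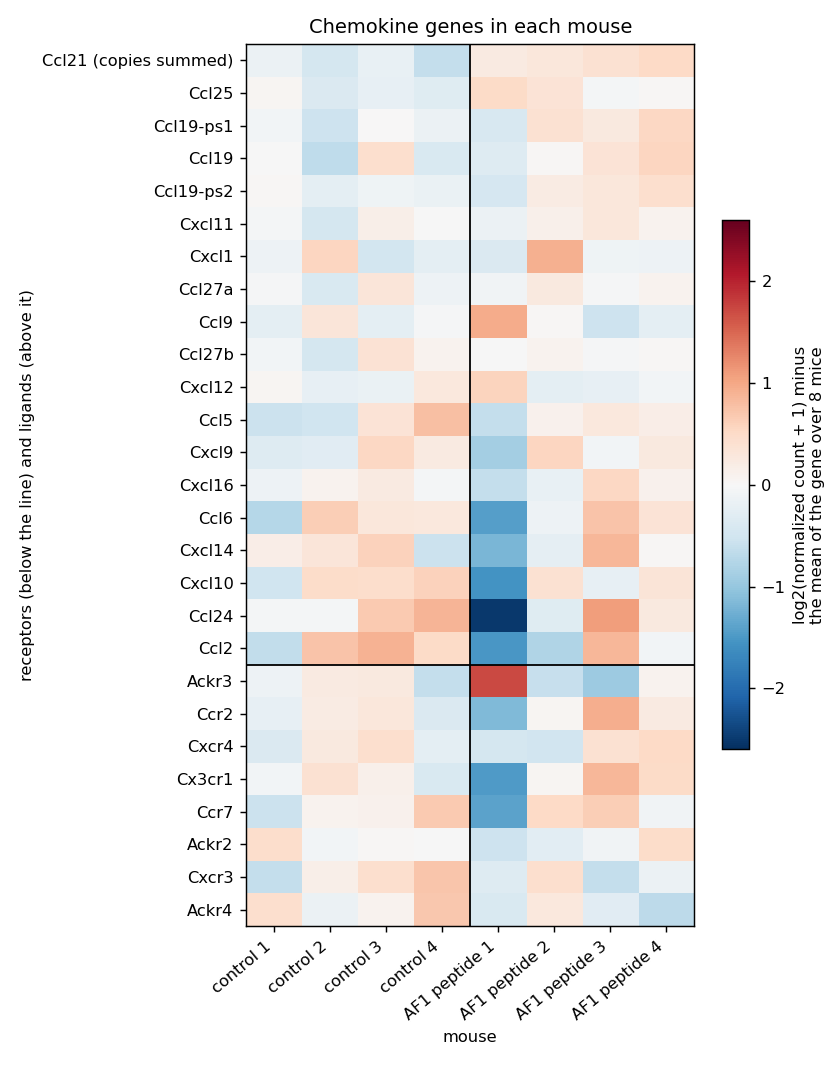
Log2(normalized count + 1) of 27 tested genes in each of the 8 mice, minus the gene's mean over the mice (red above, blue below), with control mice left and AF1 peptide-treated mice right of the vertical line and receptors below the horizontal line. The column of AF1 peptide replicate 1 holds the lowest value of 13 of these genes and the highest of 4, and the top row, the summed Ccl21 copies, is blue in the 4 control mice and red in the 4 AF1 peptide-treated mice.

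The 23 genes under the minimum had means of 1.42 to 9.59 normalized counts, and no mouse exceeded 18.1 for any of them. They were the ligands Ccl3, Ccl4, Ccl7, Ccl8, Ccl11, Ccl22, Ccl28, Cxcl2, Cxcl5, Cxcl13, Cx3cl1 and Xcl1 and the receptors Ccr1, Ccr1l1, Ccr3, Ccr6, Ccr9, Ccr10, Cxcr1, Cxcr2, Cxcr5, Cxcr6 and Xcr1. The groups overlapped for every one of them. In the limma fit without a filter on low values, 0 of the 23 passed an unadjusted p of 0.05 (the smallest was 0.117), where 5.94% of all 21528 genes did.

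Genes around the chemokines were read from lists of the cytokines, transcription factors, signalling proteins, adhesion molecules, other attractants and proteases that induce, transmit or trim them. With all 8 mice 0 of 11 tested cytokine and cytokine receptor genes, 0 of 16 transcription factor and adaptor genes, 0 of 21 signalling genes, 0 of 11 adhesion genes and 0 of 10 protease and glycan genes passed the limma threshold in either direction. Of 13 other attractants and their receptors 1 did, Ltb4r1, the leukotriene B4 receptor of neutrophils and macrophages, at 16.2 to 26.4 in control mice and 29.4 to 37.1 in AF1 peptide-treated mice (log2 fold change 0.54, unadjusted limma p of 0.0384). Together this was 1 call among 82 tested genes, beside 6.17% of all tested genes called in either direction. Without AF1 peptide replicate 1, 7 of the 82 were called (8.54%), no larger a share than the 10% of all tested genes in that fit. They were Arrb2, which desensitizes receptors (log2 fold change 0.33), Rgs2, which damps G protein signalling (0.50), and the selectin Selp (0.50), all higher, and Tnfrsf1a (-0.22), Rel (-0.64), Cebpb (-0.28) and S1pr1 (-0.48), all lower, while the limma p of Ltb4r1 was 0.0643.

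Of 72 tested markers of the cells that could carry these genes, 3 were called with all 8 mice (4.17%), below the 6.17% over all tested genes. Adgre1, the F4/80 antigen of macrophages, was lower (45.4 to 85.4 in control and 27.1 to 50.3 in AF1 peptide-treated mice, log2 fold change -0.66, unadjusted limma p of 0.0339, and 0.0768 without AF1 peptide replicate 1), as was Dcn of stellate cells (-0.42, limma p of 0.0388). Stab1 of the sinusoidal endothelium was higher (2404 to 2742 and 2826 to 3803, log2 fold change 0.28, limma p of 0.0313). The lists did not all move with these genes. Of 7 sinusoidal endothelium markers, 2 had a log2 fold change above 0 and 5 below (median -0.11, and -0.20 without AF1 peptide replicate 1). Of 7 stellate cell markers, 4 were above 0 and 3 below (median 0.02). Of 9 Kupffer cell markers, 1 was above 0 and 8 below (median -0.28, and 0.05 without AF1 peptide replicate 1). In 13 further lists, for monocytes, recruited macrophages, neutrophils, T, NK, B and dendritic cells, lymphatic endothelium, cholangiocytes, hepatocytes, red blood cells, pancreas and fat, 0 genes passed the limma threshold with all 8 mice. Without AF1 peptide replicate 1, 4 of the 72 were called (5.56%, beside 10% of all tested genes). They were Stab1 (log2 fold change 0.31) and Klrk1 of NK cells (0.63), which were higher, and Dcn (-0.43) and the hepatocyte gene Tat (-0.74), which were lower.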

How the data were processed

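Liver RNA of 8 male db/db mice (4 control, 4 AF1 peptide) was isolated with TRIzol, and mRNA libraries that keep the strand were sequenced. Per the paper's methods and the submitters' processing notes, the authors trimmed reads with Trim Galore (0.6.7), aligned them with HISAT2 to mm39, used SAMtools (1.17) for sorting, and took counts per gene from GenomicAlignments. Which annotation was used, whether counting used strand, and how reads matching several genes were handled is not given in the sources used here. The deposited values are normalized counts, a signal equal to reads divided by a size factor per library (0.5475 to 1.214). Dividing out the steps gave whole reads for 100% of 172256 values, within 0.1 of a read. No column of the table was without a sample.

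The genes described, the gene lists and the tests were chosen with earlier results of these data known. The 5 Ccl21 rows were summed, which counts a read assigned to several copies more than once. Values as log2(normalized count + 1) were compared between the groups with limma (3.58.1, R 4.3.3, trend, two-sided, without a replicate block) over 15985 genes with a mean of at least 10, and p-values were adjusted by the Benjamini-Hochberg method over all of them. For low genes this scale understates the fold. Counts of calls use an unadjusted p under 0.05, the threshold the paper names. The alternatives edgeR (4.0.16, quasi-likelihood) and DESeq2 (1.42.0) used the recovered reads. The p-values rest on the spread between mice with 1 library each. The fits were tested on simulated counts with the same spread between mice for all genes and no outlying library. That test therefore does not cover data with a mouse like AF1 peptide replicate 1. Replicates of a group differed beyond sampling noise (chi-square of their reads over its degrees of freedom, 14.6 to 312), and none was treated as a duplicate.

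Values per mouse are given for genes with an unadjusted p under 0.05 or groups that do not overlap, the 8 with the highest mean, the 3 that changed most each way, and a set of recruitment genes (Ccl2, Ccr2, Ccl5, Cx3cl1, Cx3cr1, Cxcl9, Cxcl10, Cxcr3, Cxcl1, Cxcl2, Cxcl12, Cxcr4, Ackr3). Those of Ackr4 and Ccl19 are given beyond this rule, chosen after their values were seen. Values of 1 tested gene, which enters the counts, are not reported here. Genes of other lists are named where they were called. Exon lengths, coding sequences and 50-base words came from GENCODE M21, where Ccl21d is listed as Gm21541, and promoters from RefSeq (GRCm38.p6), neither of which is the build of the files, so no other coordinates are given. Alternatives were pseudocounts of 0.5 and 5, no filter, at least 10 in every mouse, TMM or equal-total scaling, each gene's own variance, limma without the trend, the replicate block, edgeR, DESeq2 and each mouse left out. The fits with the Ccl21 copies as separate rows and the exact permutation tests were chosen after seeing the data.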

Additional observations from a re-analysis of the deposited data

Results flagged for a closer look

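In groups of 4 mice, the gap between an extreme mouse and its nearest neighbour was compared with the range of the group (Dixon's test at the 95% level) for the 28 tested chemokine and receptor genes. Of the 56 groups, 1 was marked, where chance marks about 1 in 20 groups, here 2.8. It was Cxcl1 in the AF1 peptide group, where replicate 2, at 462 normalized counts, lay apart from replicates 1, 3 and 4 (187, 226 and 221) with a gap of 0.858 of the range. Without AF1 peptide replicate 2 the log2 fold change of Cxcl1 went from 0.15 to -0.13. AF1 peptide replicate 1 was marked for 0 of the genes.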

How the results depend on the processing

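The summed Ccl21 copies kept their direction and an unadjusted p under 0.05 in all 20 of their alternatives, with log2 fold changes of 0.63 to 0.78. These include the exact permutation test, whose p was fixed once the groups did not overlap. Ccl25 stayed higher in all 23 of its alternatives (0.32 to 0.51) but passed that threshold in 17. The medians moved by less than the spread between mice in all alternatives, from -0.05 to 0.18 for ligands and from -0.27 to -0.06 for receptors. Rescaled to equal totals, 125 of all genes were higher and 768 lower, 1 chemokine gene (Ccl21) was higher, and the median of all genes moved by -0.09. With the Ccl21 copies as separate rows, chosen after seeing the data, 6 chemokine genes were higher by limma, edgeR or DESeq2. They were Ccl25 and the 5 copies, out of 23 ligand and 9 receptor genes tested. The rows of the copies are not separate measurements, so they do not make 5 signals. In these fits 506 of all genes were higher by limma, and 557 and 562 of 15989 by edgeR and DESeq2. Without 1 mouse, the genes higher ran from 281 to 728 and those lower from 255 to 875 over all genes, and from 1 to 3 and from 0 to 1 among chemokine genes. The lowest counts over all genes (281 and 255) came without control replicate 2, and the highest (728 and 875) without AF1 peptide replicate 1.

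Signs near 0 were not stable. Rescaled to equal totals, the log2 fold change was -0.05 for Ccl27b and Ccr2 and -0.07 for Cxcl12. By edgeR and DESeq2, with the Ccl21 copies summed or separate, it was 0.19 and 0.18 for Cx3cr1 and 0.05 for Cxcr4. Leaving out each mouse gave -0.42 to 0.46 for Ackr3, -0.0025 to 0.23 for Ccl27a, -0.11 to 0.17 for Ccl27b, -0.23 to 0.22 for Ccl5, -0.52 to 0.21 for Ccl6, -0.20 to 0.30 for Ccl9, -0.27 to 0.43 for Ccr2, -0.41 to 0.27 for Ccr7, -0.33 to 0.46 for Cx3cr1, -0.13 to 0.37 for Cxcl1, -0.16 to 0.12 for Cxcl12, -0.59 to 0.09 for Cxcl14, -0.28 to 0.11 for Cxcl16, -0.27 to 0.22 for Cxcl9 and -0.20 to 0.13 for Cxcr4. The cause was not tested. With at least 10 in every mouse, 4 of the 28 genes drop out. Of the named list genes, the unadjusted limma p of Adgre1 was 0.0768 to 0.0995 without control replicate 2 or 4 or AF1 peptide replicate 1, that of Dcn 0.0787 to 0.105 without control replicate 1, 2 or 4 or AF1 peptide replicate 2, that of Stab1 0.059 to 0.0802 without control replicate 1, 2 or 3 or AF1 peptide replicate 3, and that of Ltb4r1 0.053 to 0.109 without any 1 mouse other than control replicate 1 and AF1 peptide replicate 4. Other settings also took these list genes above an unadjusted p of 0.05. For Adgre1 this was each gene's own variance. For Dcn it was each gene's own variance, limma without the trend and the replicate block. For Stab1 it was equal totals and limma without the trend, and for Ltb4r1 equal totals, the replicate block and DESeq2. With the replicate block, 2 of the 28 tested chemokine genes were lower, Ccl2 (log2 fold change -0.75, unadjusted limma p of 0.0252) and Cxcl10 (-0.51, unadjusted limma p of 0.0352). The summed Ccl21 and Ccl25 stayed higher at that threshold. Of all 15985 tested genes, 1240 had an unadjusted p under 0.05 in either direction, against 986 without the block, with 0 past the adjusted threshold in each. The replicate numbers are shared by the groups but stand for different mice. Same-numbered mice correlated at 0.235, 0.0238, 0.216 and -0.0639 (replicates 1 to 4). AF1 peptide replicates 1 and 3 correlated best with the control mouse of their own number, and replicates 2 and 4 with another number. These correlations cannot decide whether the numbers pair the mice. The main fit has no block because the study's methods name none. The 23 genes under the minimum had means of at most 9.59 normalized counts, and without a filter their log2 fold changes ran from -0.99 to 1.00, with 0 past an unadjusted p of 0.05.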

Other observations

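The stretch of chromosome 4 that holds Ccl19, Ccl21 and Ccl27 also holds other copied genes, which were looked at after the chemokine values were seen. Il11ra2 and Gm13305, copies of an interleukin-11 receptor gene, had equal recovered reads in 4 of the 8 mice. Their log2 fold changes were 0.18 (95% confidence interval -0.26 to 0.61) and 0.17 (-0.25 to 0.60), beside 0.64 to 0.83 for the Ccl21 copies. Gm12407, which shares 50-base words with Ccl19, was 47.8 to 71.3 normalized counts in control mice and 48.5, 76.7, 82.4 and 96.4 in AF1 peptide replicates 1 to 4, with only replicate 1 within the control range as for Ccl19-ps1, and a log2 fold change of 0.39 (-0.12 to 0.91). Gm13306, which shares words with the Ccl27 genes, had a log2 fold change of 0.02 (-0.44 to 0.48).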
